A study of Mus musculus with 9 samples.

Results

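The genes described are 10 members of the interleukin-1 (IL-1) family and of the inflammasome, taken from the 24061 gene symbols of an RNA-seq count table by their names: the ligands Il1a, Il1b and Il18, the receptor antagonist Il1rn, the receptor subunit Il1rap, the sensor Nlrp3, the adaptor Pycard, the caspases Casp1 and Casp4, and the pore protein Gsdmd. Rows were matched to the list by gene symbol, and counts of rows with the same symbol were summed. Every one of the 10 had enough counted reads to be tested in each comparison. The cells were bone-marrow-derived macrophages (BMDMs), primary macrophages grown from the marrow of wild-type C57BL/6J female mice, which the study's methods give as 8 to 10 weeks old, for 7 days in medium conditioned by L cells and then kept without serum for a day. Veh cells received the solvent DMSO, LPS cells received DMSO and then 10 ng/mL of the bacterial TLR4 agonist lipopolysaccharide for 2 hr, and T0+LPS cells received 500 nM of the liver X receptor (LXR) agonist T0901317 (T0) from 3 hr before the same LPS dose, with T0 left in the medium. Each group had 3 libraries from separately differentiated cultures, no group received T0 alone, and the harvest time of Veh is not stated in the sources used here, so that culture time and LPS cannot be told apart in comparisons with Veh. All values come from cultured cells grown from marrow, which stand in for tissue macrophages only in part.

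IL-1 cytokines are made in macrophages after pattern recognition receptors such as TLR4 sense microbial products, which is known as priming. IL-1β and IL-18 are made as inactive precursors. In an inflammasome a sensor such as NLRP3 binds the adaptor ASC (encoded by Pycard) and caspase-1. The inflammasome cuts gasdermin D, whose fragment forms pores through which the cytokines leave, and it cuts the precursors. IL-1α signals through the same receptor as IL-1β and is active without this cut, and IL-1 receptor antagonist, encoded by Il1rn, occupies that receptor without signaling. RNA counts measure priming and say nothing of cutting or release.

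The promoters of the 4 members that LPS raised most are shown because they belong to the genes on which the comparisons turn. Each is the 250 bases before the start of the RefSeq transcript in GRCm38.p6. The bases are given 5′ to 3′ in the direction of transcription, on the strand that reads as the transcript does. Il1a and Il1b are neighbors on the minus strand, at chr2:129309973-129310222 and chr2:129371140-129371389, while Nlrp3 and Casp4 lie on the plus strand, at chr11:59542436-59542685 and chr9:5308610-5308859. Capitals mark matches to a motif.
Il1a: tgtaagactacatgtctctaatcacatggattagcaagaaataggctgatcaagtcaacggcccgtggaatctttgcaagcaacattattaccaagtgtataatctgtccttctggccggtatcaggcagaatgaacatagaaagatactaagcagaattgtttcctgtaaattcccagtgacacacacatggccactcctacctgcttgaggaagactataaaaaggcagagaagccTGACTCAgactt
Il1b: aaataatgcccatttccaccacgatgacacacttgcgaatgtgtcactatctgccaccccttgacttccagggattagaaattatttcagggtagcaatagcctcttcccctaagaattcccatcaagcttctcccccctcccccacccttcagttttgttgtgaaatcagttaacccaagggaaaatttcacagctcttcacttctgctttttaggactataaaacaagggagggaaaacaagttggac
Nlrp3: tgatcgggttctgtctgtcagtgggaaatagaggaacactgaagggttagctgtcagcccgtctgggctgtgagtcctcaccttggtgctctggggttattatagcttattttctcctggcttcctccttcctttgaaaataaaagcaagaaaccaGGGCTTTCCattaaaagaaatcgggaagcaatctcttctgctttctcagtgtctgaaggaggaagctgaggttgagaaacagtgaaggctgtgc
Casp4: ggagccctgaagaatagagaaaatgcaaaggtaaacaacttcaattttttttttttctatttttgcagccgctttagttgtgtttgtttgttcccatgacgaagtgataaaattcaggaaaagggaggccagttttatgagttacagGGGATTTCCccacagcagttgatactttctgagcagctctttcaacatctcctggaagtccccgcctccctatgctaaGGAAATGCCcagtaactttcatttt
The motifs searched on both strands were the nuclear receptor hexamer AGGTCA, DR4 (a pair of these hexamers in the same direction with 4 bases between them, which LXR is known to bind, and whose matches also contain the hexamer), AP-1 as TGANTCA, a form of the kappa-B site as GGNNTTTCC, and PU.1 as GAGGAAGT. In the Il1a promoter the capitals are an AP-1 match, TGACTCA, at positions -12 to -6 from the transcript start. In Nlrp3 they are a kappa-B match, GGGCTTTCC, at -94 to -86, and in Casp4 a kappa-B match, GGGATTTCC, at -103 to -95 and another on the opposite strand at -25 to -17. No letters of the Il1b promoter matched a motif in this window, and the RefSeq start used for it differs from the start of the counted row, at 129371139 against 129371120. The RefSeq promoter table held 13 entries for 9 of the 10 members, without Gsdmd. Of these 13, 5 held the kappa-B form (in Casp4, Il1rn and Nlrp3), 2 held AP-1 (Il1a and Il1rn), 1 held AGGTCA (Il1rn), 1 held the PU.1 letters (Pycard) and 0 held DR4. The 13 are not all separate stretches. The Casp4 entries, with starts at 5308849 and 5308860, overlap and hold the same matches. The Il1rn entries with starts at 24345291 and 24345371 also overlap, and only the latter holds a match. Counted by gene, the kappa-B form was in 3 of 9. These 3 genes each had more than 1 entry in which to match, so this count is not on the scale of a share per promoter. Among all 32851 promoters of the same length, 4.93% held the kappa-B form, 6.75% AP-1, 14% AGGTCA, 2.44% the PU.1 letters and 0.0152% DR4. These are matches of letters and are not measured binding sites.

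The libraries held between 13299044 and 16467983 counted reads. Levels are counts per 1000000 counted reads (CPM) after scaling by edgeR's TMM factors, which ran from 1.136 to 1.144 in Veh and from 0.931 to 0.948 in the LPS-treated groups, and a log2 fold change of 1 is a doubling. The quasi-likelihood test of edgeR was used, and a gene was called where its Benjamini-Hochberg adjusted p was below 0.05 over all genes tested, 9559 in LPS against Veh, 9348 in T0+LPS against LPS and 9636 in T0+LPS against Veh. The treatments can be read from genes known to follow them. Abca1 and Abcg1, cholesterol transporters that LXR induces, had log2 fold changes of 1.47 and 2.09 in T0+LPS against LPS, and Cxcl1, a chemokine induced by TLR4, one of 10.24 in LPS against Veh. Of 7 macrophage markers 6 held reads, and their summed level was 26800 to 29063 CPM in Veh, 32298 to 33686 in LPS and 35065 to 36530 in T0+LPS. Most of it was Lyz2, at a mean of 19749 CPM in Veh. From Veh to LPS the means of Lyz2, Csf1r, Adgre1 and Cd14 rose, that of Fcgr1 fell from 127 to 70.8 CPM, and Cd68 was at 534 and 540 CPM. The seventh, Itgam, was listed at 0 in every library and could be counted on 3 of its 4682 bases only.

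The question of the first comparison was which of these genes 2 hr of LPS moved in BMDMs. LPS raised 8 of the 10 members and lowered 0, and 9 of the 10 had LPS libraries that did not overlap the Veh libraries. Among all genes tested, 32.9% were called higher and 31.2% lower, and 67.3% did not overlap in either direction. The 0 lower holds for edgeR, DESeq2 and limma-voom and at an unadjusted p under 0.05, while scaling by library totals gave 1, Pycard. The median log2 fold change of the members was 1.67, against -0.00192 over all genes tested. RNA from a bulk culture cannot tell fewer cells of a type from less RNA per cell.

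**Figure D1:**
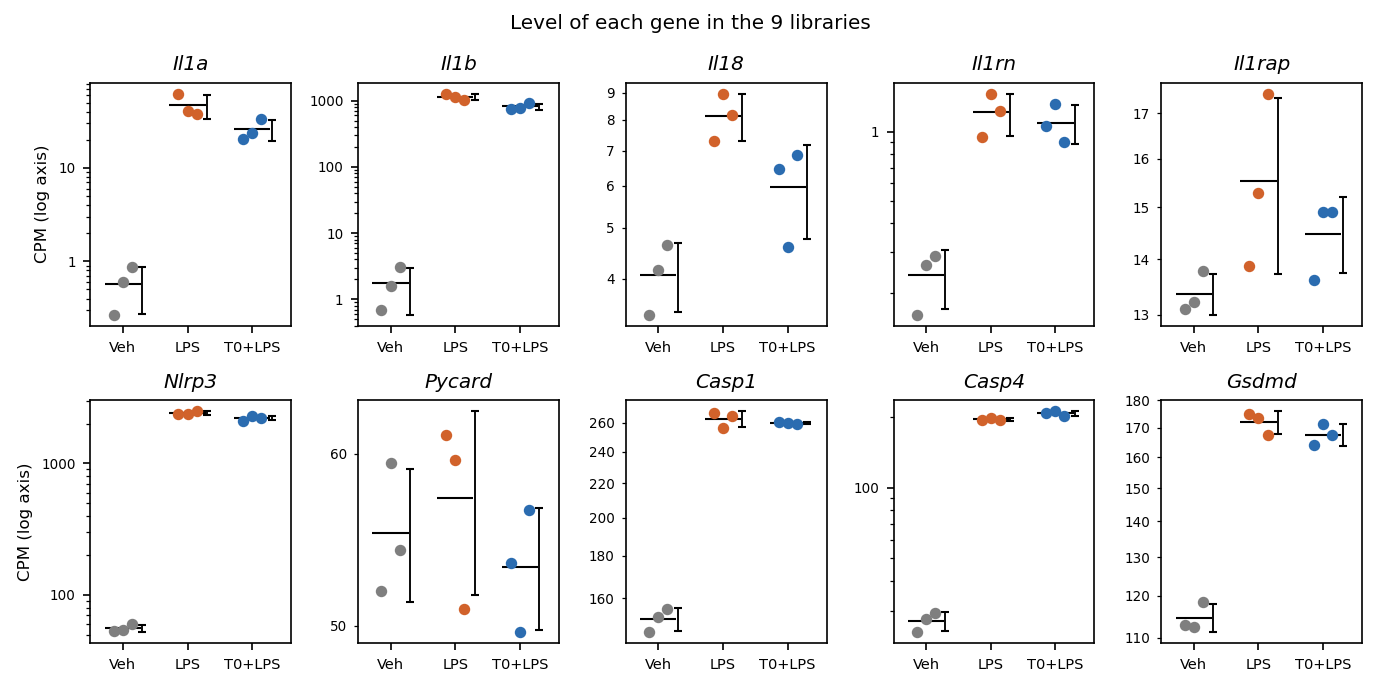
Level of each member in CPM on a log axis that differs between panels, with a point for each of the 3 libraries of Veh, LPS and T0+LPS, a line at the mean and a bar for ± SD (n = 3). Il1b goes from 1.78 CPM in Veh to 1143 CPM in LPS and 817 CPM in T0+LPS, and the libraries of Pycard overlap between all groups.

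Il1b and Il1a had the largest rises of the 10 genes. Il1b, which encodes pro-IL-1β, occupies positions 129364580 to 129371120 of mm10 chromosome 2, minus strand, and its level was 0.695, 1.59 and 3.07 CPM in the Veh libraries and 1276, 1146 and 1005 CPM in the LPS libraries. The Veh values rest on 13, 24 and 53 reads, and the LPS values on at least 13020. Every LPS library lay far above every Veh library, although the Veh libraries also differed widely among themselves. The log2 fold change was 9.34 ± 0.17 (SE, edgeR-adjusted p = 5.7e-17), a 646-fold rise with a 95% interval from 501 to 833. Without Veh replicate 3, the library with the most Il1b reads in Veh, the log2 value was 10.02, which lies above that interval on the same scale. Without Veh replicate 1, the library with the fewest, it was 8.91, which lies below the interval, whose lower end is 8.97.

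Il1a, the gene for the alarmin IL-1α, lies beside Il1b from 129299610 to 129309972. It was near the limit of detection in Veh, at 0.267, 0.595 and 0.869 CPM from 5, 9 and 15 reads, and reached 62.7, 40.5 and 38.2 CPM in LPS. Its log2 fold change was 6.35 ± 0.28 (SE, edgeR-adjusted p = 4.5e-12). The same library was highest for both ligands in LPS, and another was highest for both in Veh. Of the 1974 exon bases of Il1a, 222 are shared with the antisense transcript Gm14023 and are not counted.

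Il18, on chromosome 9 from 50565368 to 50581837, encodes pro-IL-18 and was already measurable without LPS. Its level was 3.42, 4.17 and 4.63 CPM in Veh and 7.29, 8.95 and 8.18 CPM in LPS, a log2 fold change of 1.01 ± 0.15 (SE, edgeR-adjusted p = 1.7e-05). All LPS libraries lay above all Veh libraries, by about a doubling of the mean. Il1rn, on chromosome 2 from 24336860 to 24351491, encodes the antagonist and had 0.160, 0.264 and 0.290 CPM in Veh and 0.951, 1.46 and 1.24 CPM in LPS. Its log2 fold change was 2.34 ± 0.39 (SE, edgeR-adjusted p = 6.2e-05), with a 95% interval of the fold from 2.86 to 8.95. These Il1rn values rest on 3, 4 and 5 reads per Veh library, because its 3 RefSeq rows share all but 360 bases.

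Il1rap, which encodes the co-receptor chain that IL-1 and IL-33 receptors share, lies on chromosome 16 from 26581705 to 26725147. Its level was 13.1, 13.2 and 13.8 CPM in Veh and 13.9, 15.3 and 17.4 CPM in LPS. The LPS libraries lay just above the Veh libraries, and the gene was not called, with a log2 fold change of 0.22 ± 0.10 (SE, edgeR-adjusted p = 0.057). It was called without LPS replicate 1 (0.29, adjusted p = 0.025), the adjusted p over fits without 1 library ran from 0.025 to 0.28, and its value was -0.062 when libraries were scaled by their totals.

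Among the inflammasome genes, the sensor Nlrp3 and the cytosolic LPS receptor Casp4 rose most. Nlrp3, on chromosome 11 from 59542686 to 59566956, had 53.3, 53.8 and 59.8 CPM in Veh and 2357, 2376 and 2495 CPM in LPS. The spread within each group was small against the difference, and the log2 fold change was 5.44 ± 0.06 (SE, edgeR-adjusted p = 7.4e-20). Casp4, on chromosome 9 from 5308860 to 5336791, encodes the mouse caspase that binds LPS in the cytosol and cuts gasdermin D. It had 24.3, 27.6 and 29.3 CPM in Veh and 193, 197 and 193 CPM in LPS, a log2 fold change of 2.85 ± 0.06 (SE, edgeR-adjusted p = 3.7e-16).

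Of the shared machinery downstream of the sensors, Casp1 and Gsdmd were called higher, with smaller folds, and Pycard was not called. Casp1, on chromosome 9 from 5298517 to 5307281 and so directly beside Casp4, encodes the caspase that cuts pro-IL-1β. It was at 146, 152 and 155 CPM in Veh and 267, 256 and 265 CPM in LPS, a log2 fold change of 0.80 ± 0.04 (SE, edgeR-adjusted p = 8.7e-11). The neighboring caspases were therefore both higher in every LPS library, by 1.74-fold for Casp1 and 7.22-fold for Casp4, with 95% intervals of 1.64 to 1.86 and 6.61 to 7.89.

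Gsdmd, the pore protein gene on chromosome 15 from 75862339 to 75867404, was at 113, 112 and 118 CPM in Veh and 175, 174 and 167 CPM in LPS. Its log2 fold change was 0.59 ± 0.04 (SE, edgeR-adjusted p = 7.5e-09). Pycard, the ASC gene on chromosome 7 from 127991373 to 127993867, was the member with the smallest change, at 51.9, 59.4 and 54.2 CPM in Veh and 61.2, 59.6 and 50.9 CPM in LPS. The Pycard groups overlapped, and the fitted log2 value was 0.06, with a 95% interval from -0.09 to 0.21 (edgeR-adjusted p = 0.48), and scaling by library totals turned the direction (-0.22, adjusted p = 0.0087). Under that scaling the median over all genes was -0.284 on the log2 scale, so that these values are read against it, and it kept the 8 members that were called higher.

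The next comparison asked which members T0 given before LPS moved relative to LPS alone. T0 lowered 2 of the 10 members, Il1a and Il1b, and raised 0, against 1.83% of all genes called lower and 1.35% called higher. DESeq2 called 1 member lower, Il1b, and limma-voom called 2, and none of these tools called a member higher, which also holds at an unadjusted p under 0.05. At that unadjusted threshold 4 members were lower. Groups did not overlap for 5 of the 10, of which 4 were lower and 1 higher in T0+LPS, where 19.1% of all genes did not overlap. The median log2 fold change of the members was -0.12, against 0.00282 over all genes tested, and 9 of the 10 values were negative. The plot of log2 fold changes sets both comparisons side by side.

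**Figure D2:**
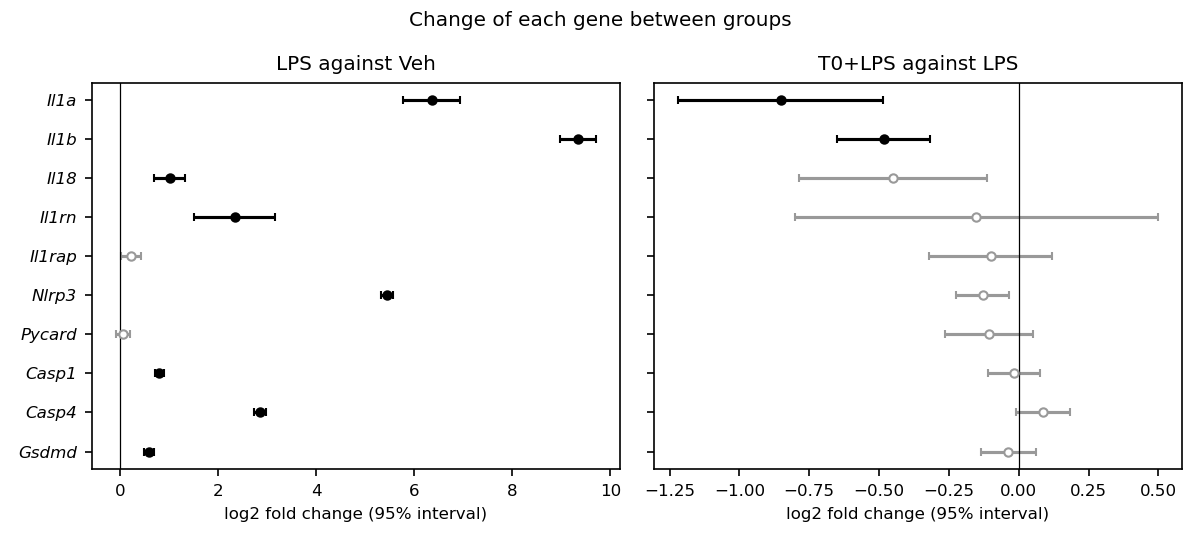
Log2 fold change of each member with its 95% interval in LPS against Veh (left) and T0+LPS against LPS (right), on axes of different scale. Filled black points passed an adjusted p of 0.05 from edgeR and open grey points did not, so that 8 genes on the left and Il1a (-0.85) and Il1b (-0.48) on the right are filled.

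Il1b was at 755, 780 and 917 CPM in T0+LPS, against 1276, 1146 and 1005 CPM in LPS. The highest T0+LPS library lay below the lowest LPS library. The fitted change was -28.5% with a 95% interval from -36.3% to -19.7%, a log2 fold change of -0.48 ± 0.08 (SE, edgeR-adjusted p = 0.0022). Leaving out each library in turn gave -0.57 to -0.40 and kept the call in 6 of 6 fits without a replicate block, with adjusted p-values up to 0.021.

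Il1a was at 20.6, 23.9 and 33.3 CPM in T0+LPS, against 62.7, 40.5 and 38.2 CPM in LPS. These groups were apart too, with nearest libraries at 33.3 and 38.2 CPM, and LPS replicate 1 stood well above the other two. The fitted change was -44.6% with a 95% interval from -57.1% to -28.6%, a log2 fold change of -0.85 ± 0.17 (SE, edgeR-adjusted p = 0.011). Without 1 library the value ran from -1.07 to -0.60, and the call was lost without T0+LPS replicate 2 (adjusted p = 0.069, where these fits ran from 0.0022 to 0.069). DESeq2 gave the same size of change, -0.86, with an adjusted p of 0.11, the highest of 8 other settings that used no replicate block.

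**Figure D3:**
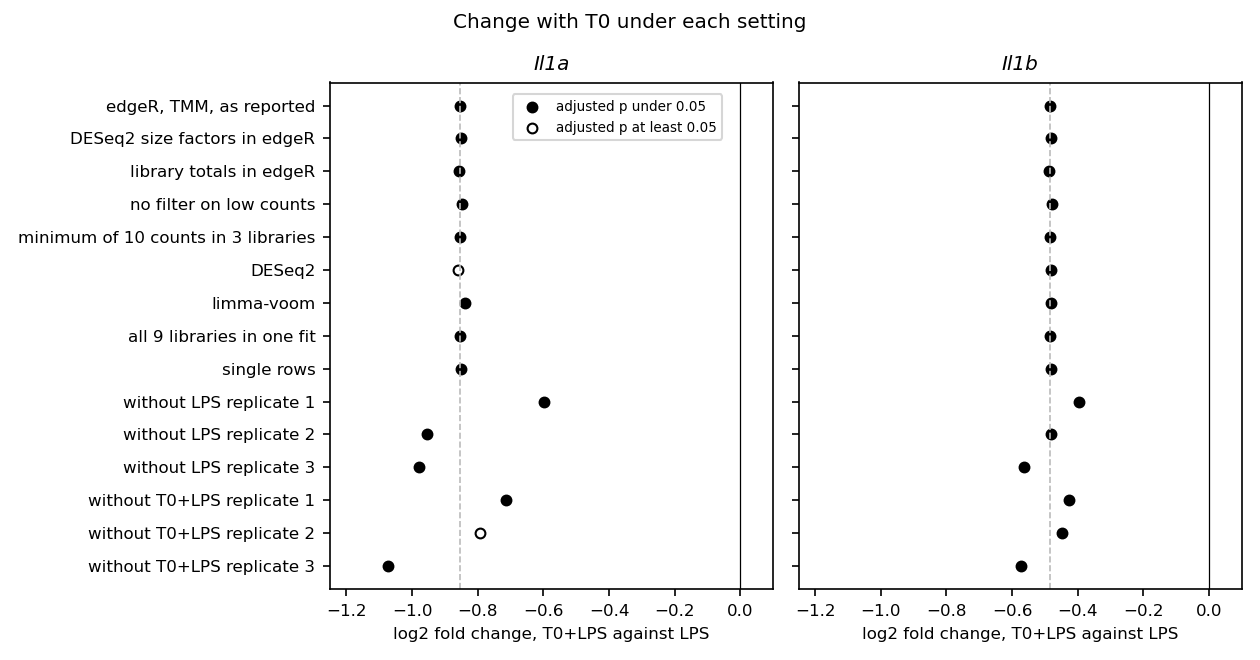
Log2 fold change of Il1a (left) and Il1b (right) in T0+LPS against LPS under each setting without a replicate block and without each library in turn, with the reported value as a dashed line and no change as a solid line. The replicate blocks in edgeR, which kept both calls, and in DESeq2, which lost both, are not drawn. Filled points passed an adjusted p of 0.05, and every point is negative, with Il1a between -1.07 and -0.60 and Il1b between -0.57 and -0.40.

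Il18, the other ligand gene whose product needs the inflammasome, was at 6.47, 4.6 and 6.86 CPM in T0+LPS, against 7.29, 8.95 and 8.18 CPM in LPS. The groups did not overlap, and the log2 fold change of -0.45 was close to that of Il1b, but its error was larger (standard error 0.16) and it was not called (edgeR-adjusted p = 0.18, 0.15 to 0.49 without 1 library). These values rest on 66 to 123 reads per library. The antagonist Il1rn had 1.07, 1.32 and 0.901 CPM in T0+LPS, with groups that overlapped. Its log2 fold change was -0.15 with a 95% interval from -0.80 to 0.50. That interval leaves room for a fall as large as that of Il1b or for none. The balance of agonist and antagonist was not measurable with the reads counted on 360 bases of Il1rn.

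Nlrp3 was at 2115, 2283 and 2209 CPM in T0+LPS, against 2357, 2376 and 2495 CPM in LPS. The groups were apart, but the step was small, a change of -8.57% with a 95% interval from -14.4% to -2.39%, and it was not called (log2 fold change -0.13, edgeR-adjusted p = 0.16). The interval for Nlrp3 did not reach the interval for Il1b.

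Casp4 was the member that stood higher with T0, at 206, 211 and 202 CPM against 193, 197 and 193 CPM in LPS. Its groups did not overlap, the log2 fold change was 0.09 with a 95% interval from -0.01 to 0.18, and it was not called (edgeR-adjusted p = 0.42). The remaining genes overlapped between groups. Casp1 was at 259 to 260 CPM in T0+LPS and 256 to 267 CPM in LPS, with a 95% interval of the change from -7.29% to 5.52%. Gsdmd, at 164, 171 and 167 CPM in T0+LPS, had an interval from -9.02% to 4.34%. For Pycard, at 53.4, 49.6 and 56.5 CPM, the interval ran from -16.6% to 3.64%, and for Il1rap, at 13.6, 14.9 and 14.9 CPM, from -19.9% to 8.63%. For these 4 genes the fitted change of Il1b, -28.5%, lies outside the interval.

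To compare members without any scaling between libraries, 5 ratios of counts within a library were taken, chosen after the values were seen. An exact permutation test of 3 against 3 libraries cannot give a two-sided p below 0.1. The log2 ratio of Il1a to Il1b was -4.63 ± 0.25 (SD, n = 3) in LPS and -5.00 ± 0.21 in T0+LPS, a difference of -0.37 with an exact p of 0.2, so that a larger fall of Il1a than of Il1b was not shown. The ratio of Il1b to Nlrp3 went from -1.08 ± 0.22 to -1.43 ± 0.15, with an exact p of 0.2, and that of Il1a to Nlrp3 differed by -0.72, with groups that did not overlap and an exact p of 0.1. Casp4 to Casp1 differed by 0.10, again without overlap and with an exact p of 0.1. Adjusted over the 5 ratios, every p was 0.2, and so were the exact p and the adjusted p for Il18 to Nlrp3, which differed by -0.33.

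The last comparison set cells given both agents against unstimulated cells. In T0+LPS against Veh 8 of the 10 were called higher and 0 lower with edgeR, DESeq2 and limma-voom, and 0 were lower at an unadjusted p under 0.05, where 32.4% of all genes were called higher and 32.9% lower. Groups did not overlap for 7 of the 10, against 69.4% of all genes. Both comparisons use the LPS or Veh libraries of the others, so the values are only set side by side. Il1b remained 455-fold above Veh (95% interval 361 to 573), where LPS alone gave 646-fold, and without Veh replicate 3 its log2 value was 9.51 in place of 8.83. Il1a was 44.5-fold above Veh, where LPS alone gave 81.8-fold. Nlrp3 was 39.0-fold and Casp4 7.54-fold above Veh, against 43.4-fold and 7.22-fold with LPS alone. Il18 was 1.45-fold above Veh, with libraries that overlapped those of Veh, a log2 fold change of 0.53 and an adjusted p of 0.014 from edgeR. That call was lost without Veh replicate 1 (adjusted p = 0.071) and without T0+LPS replicate 3 (0.075), where fits without 1 library ran from 0.0023 to 0.075, and with library totals (0.17). Pycard had a log2 fold change of -0.07, which became -0.33 and was called lower with library totals. For Il1rap the value of 0.09 became -0.17, not called.

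Levels can be compared between genes only per length, as CPM per kilobase of exon that no other row shares. In Veh the order was Casp1, at 99.8 ± 3.27 CPM per unshared kilobase (SD, n = 3), Gsdmd at 64.5 ± 1.90, Pycard at 25.8 ± 1.82, Casp4 at 18.9 ± 1.78, Nlrp3 at 13.8 ± 0.908, Il18 at 4.70 ± 0.706 and Il1rap at 3.26 ± 0.0894. Il1b (1.34 ± 0.904), Il1rn (0.662 ± 0.190) and Il1a (0.329 ± 0.172) came last, and within these last places neighboring ranges overlapped. For Il1rap the length of 4102 bases adds up unshared parts of different transcript forms. In Veh 658 of its reads lay on the 2695 unshared bases of a single row and 25 elsewhere. The value of 3.26 therefore understates that form, and the rank of Il1rap below Il18 is not established. Resting BMDMs thus held mRNA of the caspase and the pore protein, and little of the IL-1 ligands.

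In LPS the order was led by Il1b, at 861 ± 102 CPM per unshared kilobase, and Nlrp3, at 599 ± 18.6, which did not overlap. Casp1 (174 ± 3.85), Casp4 (136 ± 1.62) and Gsdmd (96.8 ± 2.27) followed, each apart from the next. Il1a, at 26.9 ± 7.72, overlapped Pycard, at 26.8 ± 2.6, and per length it was present at far less than Il1b. In T0+LPS the order differed in that place, with Pycard (24.9 ± 1.61) above Il1a (14.8 ± 3.77) and no overlap. The mean of Il1b (616 ± 65.9) still stood above that of Nlrp3 (548 ± 20.9). Their nearest libraries almost met there, at 568.8 for Il1b and 567.7 for Nlrp3. On these lengths Il1rap and Il1rn overlapped at the low end in both groups. The Il1rn value uses 360 bases of first exons, since reads on its shared bases are not counted. Divided by the full length of its longest row, 2480 bases, it would be 0.490 in LPS in place of 3.37. That length includes bases that could give no counted read, so 0.490 understates the level. The ranks of Il1rn and Il1rap are not established.

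**Figure D4:**
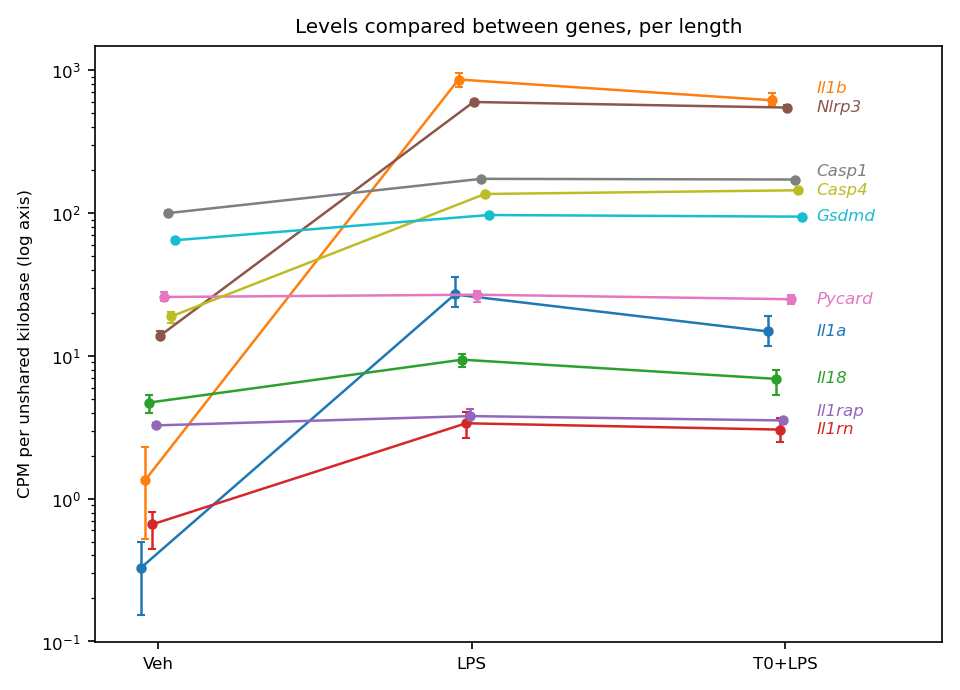
Mean level of each member in CPM per unshared kilobase on a log axis in Veh, LPS and T0+LPS, with bars from the lowest to the highest of 3 libraries. Il1b and Il1a cross from the bottom of the order in Veh to 861 and 26.9 in LPS, while Pycard and Il1rap keep nearly level lines. Casp1 rises from 99.8 to 174 and Gsdmd from 64.5 to 96.8, which look small on the log axis.

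Transcript forms could be told apart for 2 members. Of the 4 Il1rap rows, the row of the membrane-bound form (coding sequence of 1710 bases) held 658 reads over the Veh libraries, 589 over LPS and 578 over T0+LPS. The row of a short form with 1080 coding bases, which ends earlier and is known as the soluble form, held 25, 22 and 30 reads. Per unshared kilobase the short row was at 9.16%, 9.0% and 12.5% of the membrane-bound row in Veh, LPS and T0+LPS. These shares rest on few reads, and a difference between groups was not tested. The row of the longest form, with 2055 coding bases, held 0 reads on 289 unshared bases in all 9 libraries. A part of 353 bases of the membrane-bound row is shared with the antisense transcript Gm20319. For Il1rn, the row with a coding sequence of 534 bases, the secreted form, held 42 of the 48 reads in LPS, and the rows of the other forms held 6 between them.

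Genes that followed Il1b most closely over the 9 libraries were found by the root mean square (RMS) difference of log2(CPM + 1), each gene centered on its own mean, over 7299 genes with a mean of at least 5 CPM. The 5 nearest were Ptgs2 (RMS difference 0.23), the gene for the prostaglandin synthase Cox2, Socs3 (0.27), an inhibitor of cytokine signaling, the neutrophil chemokine genes Cxcl1 (0.32) and Cxcl2 (0.33), and Gbp5 (0.38), a guanylate-binding protein gene. The same 5 were nearest with library totals. All were low in Veh, at 0.702 to 4.77 CPM, and reached 624 to 3038 CPM in LPS. From LPS to T0+LPS their means changed by -37.6% for Ptgs2, -25.6% for Gbp5, -23.5% for Socs3, -15.9% for Cxcl1 and -13.9% for Cxcl2, where that of Il1b changed by -28.5%. The measure describes likeness of levels over libraries that share 3 treatments and carries no test.

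The wider pathway was read from a list of 36 further genes of IL-1 ligands, receptors, inflammasome sensors, regulators and effectors. In LPS against Veh 20 of them were tested, and 6 were higher and 6 lower, shares of the genes tested that are close to the background given above. The largest rise was that of Gbp5, which is known to promote NLRP3 assembly, from 0.962, 1.98 and 1.80 CPM in Veh to 754, 639 and 706 CPM in LPS, a log2 fold change of 8.81. Gbp2, a relative that coats cytosolic bacteria, rose by 3.80 on the log2 scale. Mefv, which encodes the sensor pyrin, went from 6 reads over the Veh libraries to 144 over LPS, a ratio of scaled counts of 31.2 with a counting interval from 13.99 to 86.4, measured on 187 of its 3249 bases. Nlrc4, the adaptor sensor for bacterial flagellin and secretion systems, rose from 23.1 ± 1.18 to 34.2 ± 2.33 CPM (SD, n = 3), which is 0.57 on the log2 scale. Ninj1, which encodes the protein that ruptures the membrane late in lytic death, rose from 563 ± 22.2 to 862 ± 25.1 CPM, a log2 fold change of 0.62.

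Not all sensors and effectors moved up. Nlrp1b, the sensor of anthrax lethal factor, fell from 16.8, 15.8 and 18.4 CPM in Veh to 5.07, 4.8 and 8.26 CPM in LPS, a log2 fold change of -1.49 ± 0.15 (SE, edgeR-adjusted p = 2.3e-07). Gsdme, the other pore protein gene on the list, fell from 27.3 ± 0.216 to 14.3 ± 1.64 CPM (SD, n = 3), and its fitted log2 value of -0.93 is opposite in sign to that of Gsdmd. P2rx7, the gene for the ATP-gated channel that triggers NLRP3, had a log2 fold change of -1.05 (edgeR-adjusted p = 0.026) at under 1 CPM, on 578 of its 4936 bases. Of 11 sensors 8 were tested, with 3 higher and 4 lower where 32.9% and 31.2% of all genes were called, and of 8 receptors and binding proteins 4 were tested, with log2 fold changes from 0.02 to 0.57 and edgeR-adjusted p-values of at least 0.125. None of the 6 other ligands was tested in this comparison, since too few reads were counted.

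In T0+LPS against LPS 19 of the 36 genes were tested, of which 1 was lower and 1 higher, against 1.83% lower and 1.35% higher over all genes. Gbp5 was lower, at 438, 531 and 593 CPM against 754, 639 and 706 CPM in LPS. The groups did not overlap, and the log2 fold change was -0.43 ± 0.08 (SE, edgeR-adjusted p = 0.0090). Ninj1 was higher, at 1028, 1035 and 970 CPM against 840, 889 and 857 CPM, without overlap, a log2 fold change of 0.23 ± 0.04 (SE, edgeR-adjusted p = 0.0083). Of the sensors 7 were tested and none was called by edgeR. Their log2 fold changes ran from -0.28 for Nlrp1b to 0.63 for Mefv, which had the lowest edgeR-adjusted p of them, 0.11, and libraries that overlapped.

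**Figure D5:**
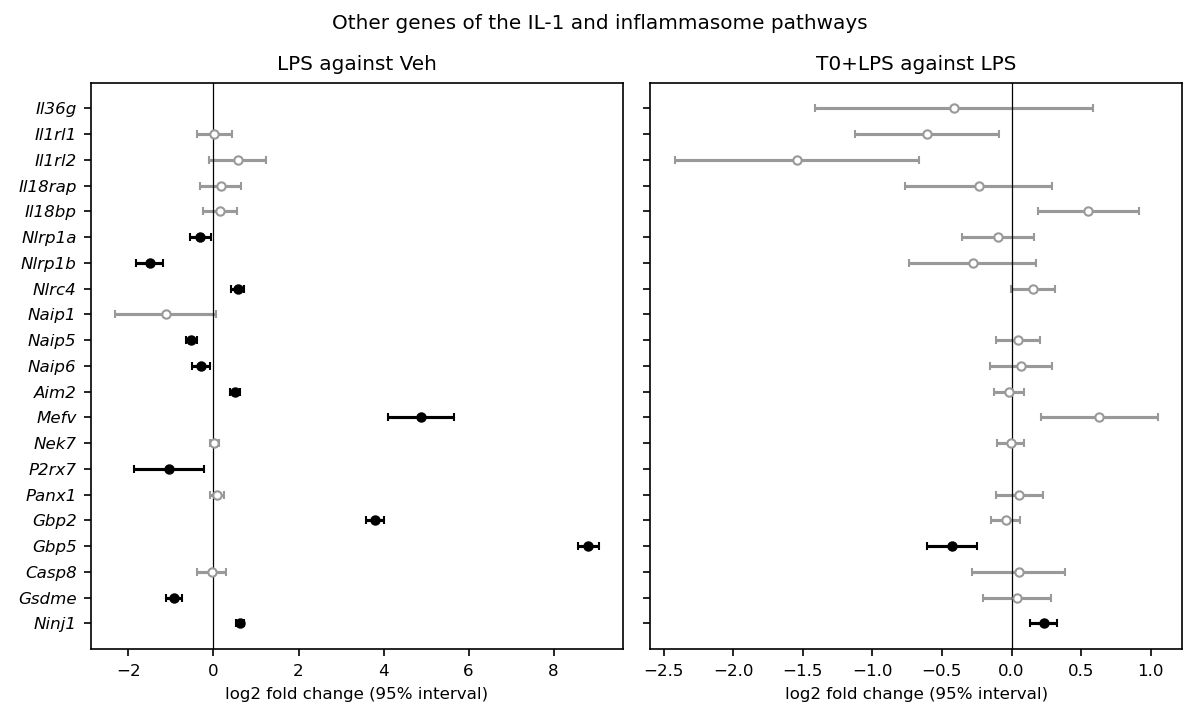
Log2 fold change with its 95% interval of the genes of the wider list that were tested, in LPS against Veh (left) and T0+LPS against LPS (right), on axes of different scale. Filled black points passed an adjusted p of 0.05, which on the right are Gbp5 (-0.43) and Ninj1 (0.23), and a gene without a point was not tested in that comparison.

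Neutrophils and dendritic cells also make IL-1, so their markers were read beside the members. Of 8 neutrophil markers 7 were in the table, and their summed level was 1.45 to 2.09 CPM in Veh, 3.32 to 4.00 CPM in LPS and 2.37 to 3.58 CPM in T0+LPS. Most of it was S100a8, which LPS-treated macrophages are also known to express, at a mean of 0.987 CPM in Veh, 2.28 CPM in LPS and 1.62 CPM in T0+LPS. From LPS to T0+LPS the S100a8 libraries did not overlap, with a log2 fold change of -0.49 that was not called (edgeR-adjusted p = 0.39), beside -0.48 for Il1b. S100a9 was listed at 0 but is counted on 3 of its 524 bases. The granule genes Mpo and Elane, which mark neutrophil precursors, held at most 2 reads in any library. The sum of 4 dendritic cell markers was 0.232 to 0.529 CPM in Veh, 2.54 to 2.98 CPM in LPS and 1.87 to 3.12 CPM in T0+LPS. B cell markers summed to 0.836 to 2.45 CPM over all libraries, fibroblast markers to at most 0.661 CPM with Pdgfra at 0, and T cell markers to at most 0.0793 CPM with Cd3e at 0. The neutrophil and dendritic cell sums moved with Il1a and Il1b in LPS against Veh. Most of the dendritic cell rise was Xcr1, at a mean of 0.248 CPM in Veh and 1.79 CPM in LPS. The mean of Zbtb46 rose from 0.0948 to 0.719 CPM and that of Ccr7 from 0 to 0.180 CPM, both on few reads, while Flt3 held 0 reads in both groups. In T0+LPS against LPS the neutrophil sums overlapped. The means of S100a8, Ngp, Camp and Mpo were lower there and those of Ltf and Elane higher, and only the S100a8 libraries were apart. The part of such cells in the changes of Il1a and Il1b was not tested.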

How the data were processed

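The authors trimmed adaptors with cutadapt 1.14, aligned reads of polyadenylated RNA to mm10 with HISAT2 2.1.0 and counted them on RefSeq rows with featureCounts 1.5.0, and the deposited table gives raw counts per row without any normalization. Whether strand was used is not stated, and reads on bases shared by rows, on either strand, are not in the counts: 6696 of 32850 rows have no base of their own and 0 of these hold a read. The deposited table of the authors' own comparison and their gene list were not used.

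Rows were summed per symbol and tested with edgeR 4.0.16 (glmQLFit, TMM, filterByExpr) on the 6 libraries compared, in R 4.3.3, and checked on simulated data. DESeq2 1.42.0 and limma-voom 3.58.1, other scalings and filters, a replicate block and fits without each library were alternatives. Intervals are 95% intervals of the fit. No pair of libraries was alike within sampling noise (chi-square per degree of freedom 2.63 to 6.67). Members, lists and rules for named genes were chosen with earlier results of these data known. The rule named every member, the genes of the wider list called in T0+LPS against LPS, and the 8 with the largest change among those called in LPS against Veh.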

Additional observations from a re-analysis of the deposited data

How the results depend on the processing

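Of the log2 fold changes of members under planned and added settings, 495 kept direction and call, 8 lost a call, 3 gained one and 4 changed sign. With library totals, LPS against Veh gave 1696 genes higher and 5408 lower (23.9% of calls higher, in place of 51.4%) and 1 member lower, and T0+LPS against Veh gave 1661, 5520 and 1. Il1rap changed sign to -0.062 and -0.17 there, and Pycard to -0.22 in LPS against Veh. In T0+LPS against LPS, testing without a filter gave 225 genes higher and 285 lower, in place of 126 and 171, and DESeq2 gave 1 member lower in place of 2. Without 1 library the genes called ran from 59 to 167 higher and from 82 to 191 lower, with 59 and 82 without LPS replicate 1, 78 and 94 without T0+LPS replicate 2 and 103 lower without T0+LPS replicate 1, members lower from 1 to 2, and Il1rn from -0.31 to 0.0022, all within a fit to 5 libraries. The causes were not tested.

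Same-numbered libraries of LPS and T0+LPS had correlations of deviations of 0.0533, -0.0457 and -0.000712, so no pairing was seen over all genes. These values cannot settle whether replicate numbers pair libraries, since a pairing that touched only some genes would not show in them. With the replicate block in edgeR 155 genes were higher and 230 lower, with 2 members lower (adjusted p 0.00016 for Il1a and 6.3e-05 for Il1b). With the replicate block in DESeq2, added after seeing the data, the numbers were 70 and 83, with 0 members lower (adjusted p 0.53 for Il1a and 0.28 for Il1b, where the other settings for Il1b with all 6 libraries reached 0.0105), and 1991 genes were lower in T0+LPS against Veh. There Il18 also lost its call (0.12). Full exon lengths in place of unshared bases moved Il1rn to 0.0960, 0.490 and 0.442 CPM per kilobase in Veh, LPS and T0+LPS, and Il1rap to 2.92 in Veh and 3.16 in T0+LPS. Full lengths include shared bases that give no counted read, so these values understate the levels.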

Other observations

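On the receptor side of the pathway, 3 genes chosen after their values were seen stood apart from the unstimulated level in T0+LPS. LPS alone did not move them past the threshold. Of 8 receptors and binding proteins 5 were tested in T0+LPS against Veh, with 1 called higher and 2 lower. Over all genes tested in that comparison 32.4% were called higher and 32.9% lower. Il18bp, which encodes the binding protein that traps IL-18, was at 3.42 ± 0.76 CPM (SD, n = 3) in Veh, 3.78 ± 0.44 in LPS and 5.51 ± 0.78 in T0+LPS. Its log2 fold change was 0.69 against Veh (edgeR-adjusted p = 0.0033) and 0.55 against LPS (adjusted p = 0.11), and the T0+LPS libraries lay above those of LPS. Il1rl1, the gene for the IL-33 receptor ST2, was at 2.73 ± 0.24, 2.77 ± 0.41 and 1.83 ± 0.49 CPM, with -0.61 against Veh (edgeR-adjusted p = 0.025) and -0.61 against LPS (adjusted p = 0.26). Il1rl2, the IL-36 receptor gene, was at 0.663 ± 0.081, 0.993 ± 0.21 and 0.331 ± 0.096 CPM, with -0.999 against Veh (edgeR-adjusted p = 0.039) and -1.55 against LPS (adjusted p = 0.056). These comparisons share libraries, the counts are low, and for none of the 3 genes did T0+LPS against LPS pass the threshold.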
